A study of Mus musculus with 2 samples.

Results

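Gc encodes vitamin D binding protein, the plasma carrier of vitamin D and its hydroxylated forms, which also binds monomeric actin outside cells. The liver makes most of the circulating protein, and in the pancreas the gene is known as an α cell gene. Gc is the 1 gene described here of the 31053 genes counted, and it was chosen for its known levels in these cells, so its levels are given as a description. UMIs (unique molecular identifiers, which tag each captured transcript) were counted in pancreatic islets of male C57/B6 mice 16 weeks old. The wild-type (WT) mice ate standard chow, whereas the mice of the HFD library, high-fat diet-fed, were given feed with 60% of its calories as fat for 10 weeks from an age of 6 weeks. Each library pooled the islets of 4 mice, so diet, preparation and library cannot be told apart, no test between mice was possible, and all intervals here are exact 95% intervals for counting error only.

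Vitamin D circulates bound to this carrier, and cells of the kidney take up the complex through megalin (Lrp2) and cubilin (Cubn). Enzymes hydroxylate the vitamin to calcidiol (Cyp2r1, Cyp27a1) and calcidiol to calcitriol (Cyp27b1), and Cyp24a1 breaks both down. Calcitriol acts through the vitamin D receptor (Vdr), which pairs with retinoid X receptors. The islet α, β and δ cells studied here secrete glucagon, insulin and somatostatin.

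Gc (ENSMUSG00000035540) is a minus-strand gene of chromosome 5 and spans 89417522 to 89457898 in GRCm38. Its annotated coding transcript has 13 exons and a coding sequence of 1428 bases for 476 amino acids. The last exon, 89417522 to 89417688, is the end that the 3′ chemistry reads, and no other annotated gene overlaps Gc. The promoter, the 250 bases before the start site at chr5:89457899-89458148 (GRCm38.p6, minus strand, from RefSeq), is shown because Gc was found in 3 islet cell types here.

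Gc promoter: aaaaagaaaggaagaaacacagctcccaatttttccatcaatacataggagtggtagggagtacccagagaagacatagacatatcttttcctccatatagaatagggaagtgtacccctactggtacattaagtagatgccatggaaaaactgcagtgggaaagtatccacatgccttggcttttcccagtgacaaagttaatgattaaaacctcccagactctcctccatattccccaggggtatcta

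The letters TATAAA of the TATA box were searched on both strands. They were found in 12.4% of 32851 promoters of the same length, among them those of Afp and Afm, and not in this window of Gc. A match or its absence is a run of letters and no measurement of binding.

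Barcodes with at least 500 genes and at most 20% of UMIs from mitochondrial (mt-) genes were kept, with no maximum of UMIs and without the highest doublet scores. This left 2497 of 3895 WT barcodes, with a median of 23976 UMIs, and 6673 of 8951 HFD barcodes, with a median of 10925 UMIs. The libraries shared 9 barcodes. Clusters were named from marker lists, with Gc left out of the clustering, and 296 WT and 561 HFD cells stayed unnamed. All 10 α markers were highest in α-like cells of both libraries, and 8 of 10 β markers in β-like cells, with Pdx1 higher in δ-like and Slc30a8 in α-like cells. Of 8 δ markers, 6 in WT and 7 in HFD were highest in δ-like cells, and Prg4 was at 0. Since the same lists named the clusters, these counts are no separate check of the names.

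The first comparison asked in which islet cells Gc was found. In WT, α-like cells held 117 Gc UMIs in 52 cells, or 199 CPM (Gc UMIs in each 1000000 UMIs of the same cells, 164 to 238). WT δ-like cells held 47 in 35 cells, or 157 CPM (116 to 209), and WT β-like cells held 1431 in 1746 cells, or 24.1 CPM (22.8 to 25.4). In WT the α-like and δ-like intervals overlapped, and both lay above the β-like interval. The ratio of α-like to β-like cells was 8.25 (6.78 to 9.97), and 35.6% of all genes tested in that comparison had a ratio of at least 2. The ratio of δ-like to β-like cells was 6.53 (4.78 to 8.73), beside 46.9% of genes at or past 2.

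In HFD, α-like cells held 204 Gc UMIs in 212 cells, or 190 CPM (165 to 218). HFD δ-like cells held 62 in 97 cells, or 208 CPM (159 to 266), and HFD β-like cells held 5771 in 5338 cells, or 81.7 CPM (79.6 to 83.8). The α-like and δ-like intervals again overlapped above the β-like one, but the gap was narrower. The ratio of α-like to β-like cells was 2.33 (2.02 to 2.68), beside 25.9% of genes at or past 2, and that of δ-like to β-like cells was 2.54 (1.95 to 3.26), beside 42.7%.

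**Figure D1:**
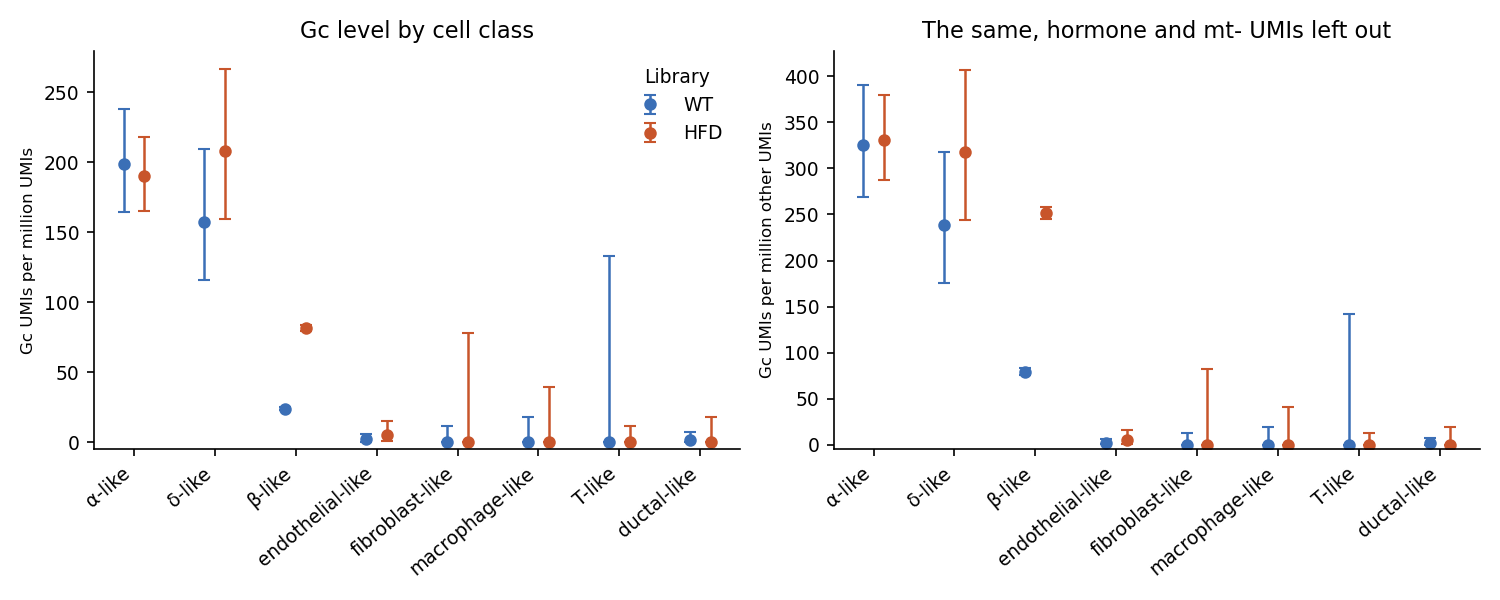
Gc level in CPM of all UMIs (left) and in CPM with islet hormone and mt- UMIs left out of the total (right) in 8 cell classes, with points for the sum over all cells of a class in the WT (blue) or HFD (orange) library and bars for exact Poisson 95% intervals. Within each library the α-like and δ-like points lie above the β-like one in both plots, and the HFD β-like point (81.7 CPM) lies above the WT one (24.1 CPM).

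Hormone transcripts fill unequal parts of these cells, and a CPM scale reads every other gene against them. Islet hormone and mt- genes together took 69.7% of UMIs in WT β-like cells and 67.5% in HFD, against 39.0% and 42.5% in α-like cells. With those genes taken out of the total, Gc in α-like cells stood at 326 CPM (WT) and 331 CPM (HFD), in δ-like cells at 239 and 318 CPM, and in β-like cells at 79.4 and 251 CPM. On this scale the ratio of α-like to β-like cells was 4.10 (3.37 to 4.95) in WT and 1.32 (1.14 to 1.51) in HFD. The ratio of δ-like to β-like cells in HFD was 1.26 with an interval of 0.968 to 1.62, which holds 1.

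Cells outside the endocrine islet gave the level of free RNA. WT non-endocrine cells held 5 Gc UMIs in 368 cells, or 1.57 CPM (0.508 to 3.65), and HFD ones held 4 in 465 cells, or 2.87 CPM (0.782 to 7.35). Both β-like levels lay above these, by 15.4 times in WT (6.58 to 47.4) and 28.5 times in HFD (11.1 to 105). Endothelial-like cells held 3 Gc UMIs in each library. Fibroblast-like, macrophage-like, T-like, B-like and Schwann-like cells held 0 in both libraries, and the tightest limit that a count of 0 set among them (3 counts) was 9.30 CPM, in HFD T-like cells. The remaining UMIs were 2 in WT ductal-like cells and 1 in HFD acinar-like cells.

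Glucagon (Gcg) and somatostatin (Sst) UMIs in β-like cells gave a second reading of RNA from other islet cells. In α-like cells there were 0.673 Gc UMIs for each 1000 Gcg UMIs in WT and 0.669 in HFD. In β-like cells there were 63.2 (59.9 to 66.7) in WT and 400 (388 to 413) in HFD. At the α-like ratio the Gcg UMIs of β-like cells would go with 15.2 Gc UMIs in WT, or 1.06% of those found, and with 9.64 in HFD, or 0.167%. At the δ-like ratio their Sst UMIs would go with 36.5 Gc UMIs in WT (2.55%) and 22.2 in HFD (0.385%). Gcg itself was lower in HFD β-like cells, at 204 CPM against 381 CPM in WT.

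The second comparison set HFD against WT within each class. The ratio of Gc in β-like cells was 3.39 (3.20 to 3.60), from the 24.1 and 81.7 CPM above, and it was 3.16 (2.99 to 3.36) without hormone and mt- UMIs. In β-like cells 1.99% of 13295 genes had a ratio of at least 2, and 72 genes (0.542%) had one as high as that of Gc. In α-like cells the ratio of Gc was 0.958 (0.759 to 1.21), and 39.5% of 6375 genes had a ratio as high, the median log2 ratio of all genes there being -0.18. Without hormone and mt- UMIs the α-like ratio was 1.02 (0.806 to 1.29). In δ-like cells it was 1.32 (0.889 to 1.97), and 17.1% of 3757 genes had a ratio as high. The α-like and δ-like intervals hold 1 and reach 1.21 and 1.97, but the ratios of the classes were not tested against each other, and the δ-like interval depended on the cells taken. Counts of 52 and 35 WT cells limit what could be seen in α-like and δ-like cells. Among cells of 10000 to 30000 UMIs the α-like ratio was 0.633.

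The δ-like class joined clusters that differed. In cluster 13a Gc stood at 168 CPM in 29 WT cells and 167 CPM in 71 HFD cells, and in cluster 13d at 101 CPM in 6 WT cells (32.8 to 236) and 312 CPM in 26 HFD cells (204 to 457). The 1.32 of the class therefore did not come from its larger cluster. With at most 10% mt- UMIs, which left 4 WT and 22 HFD δ-like cells, the ratio was 3.14 (1.07 to 12.5), and at clustering resolution 2, with 24 and 37 cells, it was 2.38 (1.36 to 4.20). Both intervals lie above 1 and reach past the β-like ratio of 3.39. The size of the δ-like ratio thus rests on which cells were named δ-like.

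**Figure D2:**
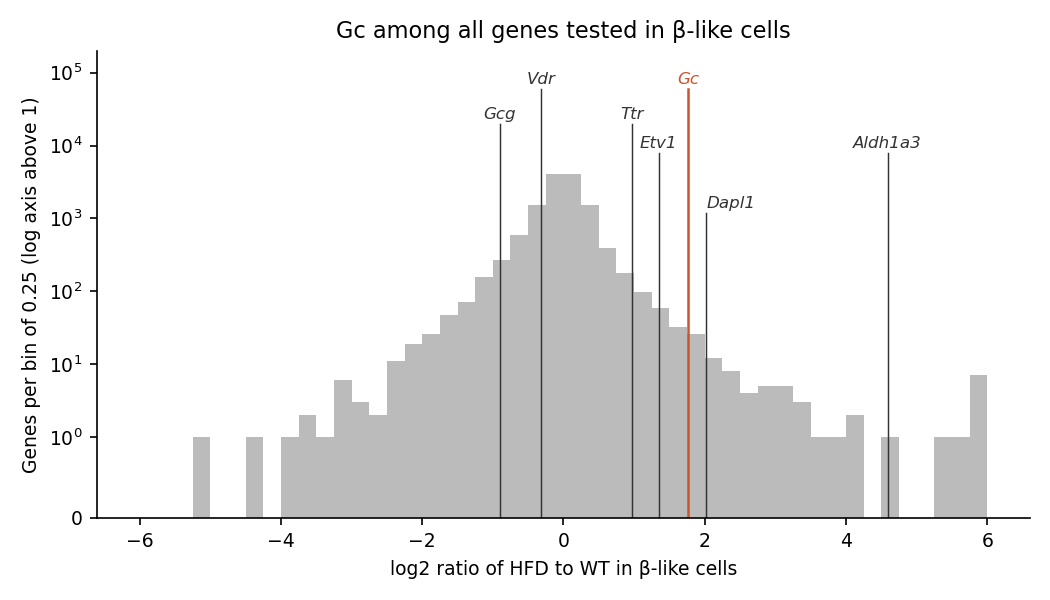
Number of genes (log axis above 1) by log2 ratio of HFD to WT in β-like cells, over 13295 genes with at least 20 UMIs, in bins of 0.25 with values past 6 gathered in the last bin. Gc (orange line, 1.76) lies in the upper tail between Etv1 (1.35) and Dapl1 (2.02), while Vdr (-0.31) and Gcg (-0.90) lie below 0.

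The share of cells with a Gc UMI depends on depth, which was higher in WT β-like cells (median 30585 UMIs) than in HFD ones (11681). Without thinning, 763 of 1746 WT β-like cells (43.7%) and 2763 of 5338 HFD β-like cells (51.8%) held a Gc UMI. With each cell thinned to 2000 UMIs, 75 of 1741 WT cells did (4.31%, 3.40 to 5.37) and 710 of 5326 HFD cells did (13.3%, 12.4 to 14.3). Only 5 and 12 cells were too shallow for this. At equal depth the β-like share was higher in HFD, with intervals that did not overlap. At 10000 UMIs the shares were 18.6% of 1656 WT cells and 50.2% of 3359 HFD cells, with 37.1% of HFD β-like cells too shallow to enter.

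At 2000 UMIs the other islet classes held Gc in more cells. The share was 25% of 52 WT α-like cells (14.0 to 38.9) and 29.0% of 210 HFD ones (23.0 to 35.7). It was 24.2% of 33 WT δ-like cells (11.1 to 42.3) and 30.7% of 88 HFD ones (21.3 to 41.4). In non-endocrine cells it was 1 of 342 cells in WT (0.292%, 0.00740 to 1.62) and 1 of 244 in HFD (0.410%, 0.0104 to 2.26), at median depths before thinning of 5861 and 2052 UMIs. The β-like shares of both libraries lay above these background shares, and below the α-like shares. The 2000 UMIs include islet hormone and mt- UMIs, which took 69.7% (WT) and 67.5% (HFD) in β-like cells. In δ-like cells they took 34.1% and 34.7%, and in α-like cells 39.0% and 42.5%. The β-like cells thus kept fewer other UMIs, and shares at equal depth of other UMIs were not measured.

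**Figure D3:**
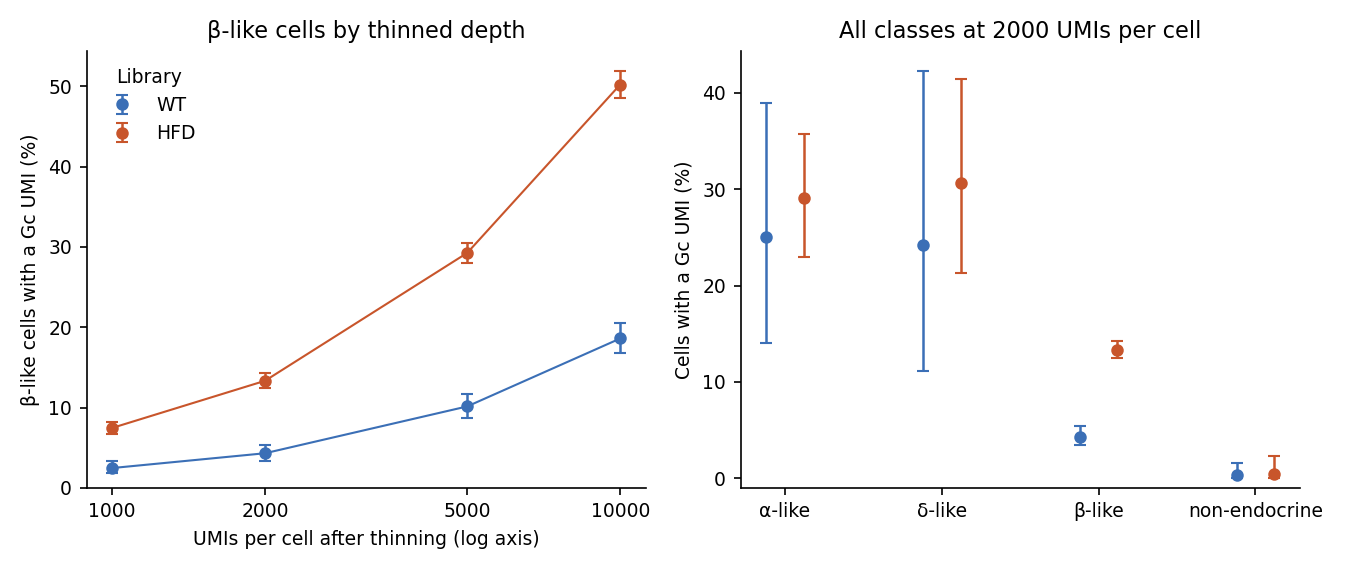
Percent of cells with at least 1 Gc UMI: β-like cells thinned to 1000, 2000, 5000 and 10000 UMIs (left, log axis of depth) and 4 classes at 2000 UMIs (right), with WT in blue, HFD in orange and bars for exact 95% binomial intervals. The HFD β-like points lie above the WT ones at each depth, from 7.46% against 2.46% at 1000 UMIs to 50.2% against 18.6% at 10000.

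Gc UMIs were spread over many β-like cells. At full depth 39 WT β-like cells (2.23%) held 5 or more and 15.8% of the Gc UMIs of the class, and 225 HFD cells (4.22%) held 5 or more and 24.0% of them. The highest cell held 13 UMIs in WT and 18 in HFD.

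Within HFD β-like cells the level of Gc was higher in cells with more UMIs. It was 47.6 CPM (32.1 to 68.0) in cells of up to 5000 UMIs, 59.9 CPM from 5000 to 10000 and 120.5 CPM (110 to 131) above 30000. In WT the order was less steady, with 19.6 CPM (7.19 to 42.7) from 5000 to 10000 UMIs on 6 Gc UMIs, 10.9 CPM (4.99 to 20.7) from 10000 to 15000 on 9 Gc UMIs, 21.3 CPM from 15000 to 30000 and 25.4 CPM above 30000. HFD cells were above WT cells in each of the 5 ranges of UMIs. The ratio was 3.06 (1.40 to 8.36) from 5000 to 10000 UMIs, 7.45 (3.92 to 16.3) from 10000 to 15000, 4.10 (3.66 to 4.61) from 15000 to 30000 and 4.74 (4.25 to 5.27) above 30000, where 895 WT and 125 HFD cells lay. The range up to 5000 UMIs had 1 Gc UMI in 50 WT cells, and its ratio was 7.03 with an interval of 1.17 to 287.

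**Figure D4:**
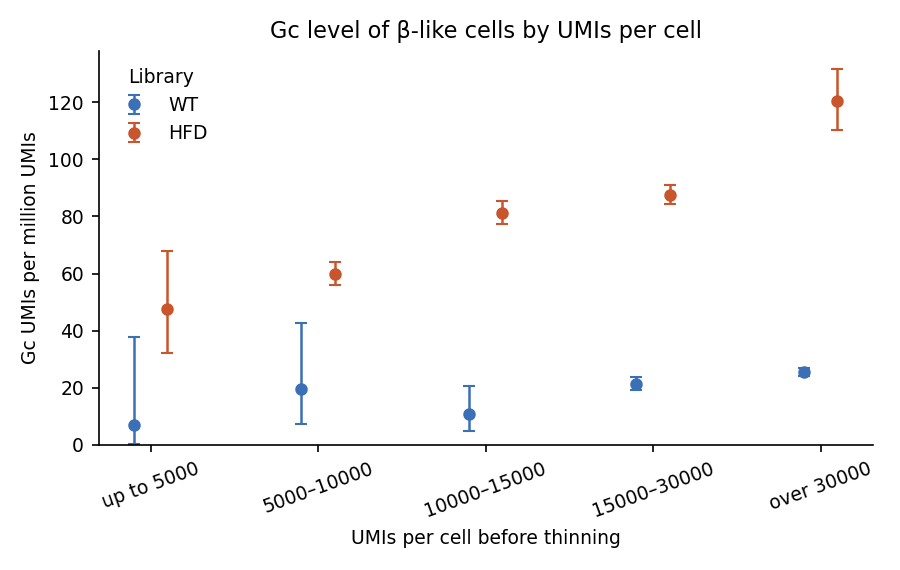
Gc level in CPM in β-like cells grouped by UMIs per cell (5 ranges), with points for the sum over the cells of a range in WT (blue) or HFD (orange) and bars for exact Poisson 95% intervals. HFD points climb from 47.6 to 120.5 CPM and lie above the WT points, which run from 6.77 to 25.4 CPM.

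β-like cells fell into 13 clusters that mostly held 1 library. Clusters made mostly of WT cells numbered 4 and took 94.5% of that library's β-like cells, and the other 9 took 96.9% of those of HFD. In such clusters the library and a cell state cannot be told apart. The clusters led by Dapl1 had Gc levels in HFD of 85.8 CPM (cluster 1, 1285 cells), 90.8 CPM (cluster 2, 1197 cells), 97.9 CPM (cluster 3, 723 cells), 82.7 CPM (cluster 5b, 129 cells) and 117 CPM (cluster 5c, 77 cells). In cluster 0, led by the stress gene Nupr1 and the metallothioneins Mt1 and Mt2, 1409 HFD cells had 53.6 CPM (49.98 to 57.3). The highest level was 161 CPM (136 to 190) in the 53 HFD cells of cluster 7d, led by Ankrd1. Gc itself was not among the genes used for clustering.

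Few clusters held enough cells of both libraries to compare them. In cluster 4, led by Rasd1, C2cd4b and the early response gene Fos, 578 WT cells had 22.0 CPM of Gc and 97 HFD cells had 39.9 CPM, a ratio of 1.82 (1.25 to 2.56). In cluster 6, also led by C2cd4b and Rasd1, it was at 26.2 CPM in 510 WT cells and 29.8 CPM in 28 HFD cells, a ratio of 1.14 with an interval of 0.584 to 2.0. The ratio was 2.47 (1.25 to 4.42) in cluster 8 and 2.56 (1.63 to 4.20) in cluster 11, where mt- genes are among the leading genes. In cluster 0 the 21 WT cells held no Gc UMI, which allows up to 9.96 CPM, against the 53.6 CPM of HFD. The ratios in clusters 4 and 6 lay wholly below the 3.39 over all β-like cells, those of clusters 8 and 11 were lower with intervals that reach past it, and in cluster 6 no difference was detectable.

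**Figure D5:**
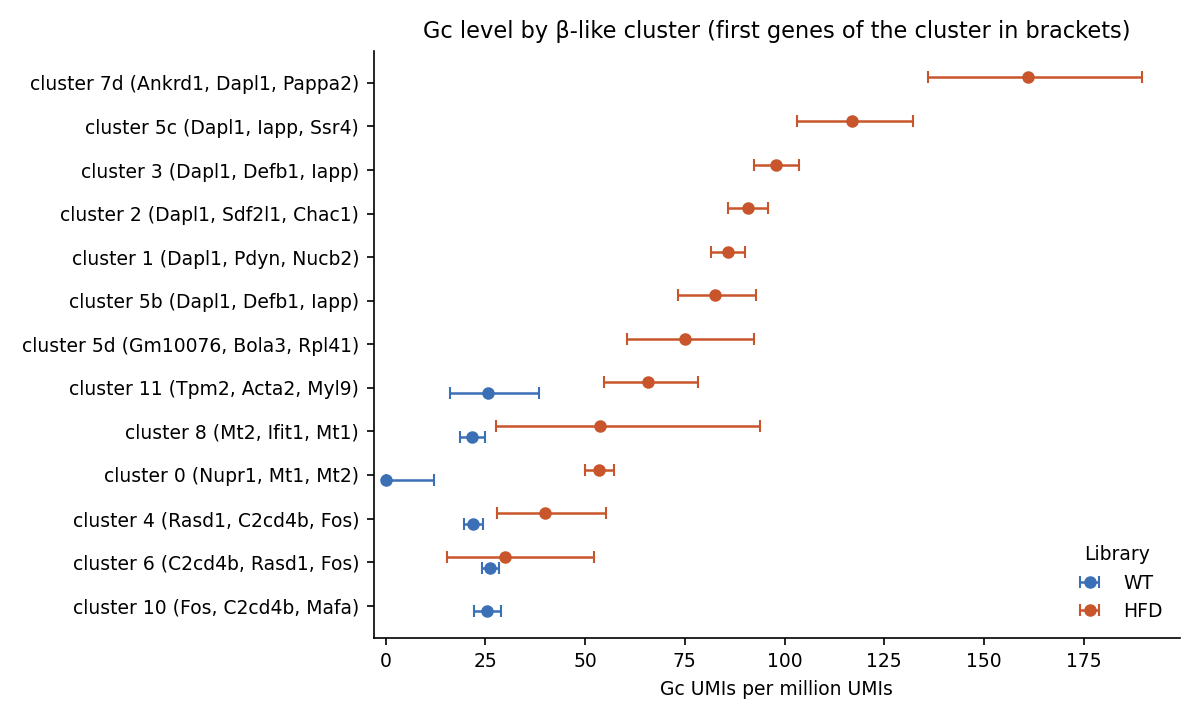
Gc level in CPM in each β-like cluster with at least 20 cells of a library, in WT (blue) and HFD (orange), with exact Poisson 95% intervals and the first leading genes other than Gc in brackets. WT points lie from 0 to 26.2 CPM, and HFD points from 29.8 CPM in cluster 6 to 161 CPM in cluster 7d.

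A second islet hormone in a β-like cell can mark a joined droplet, so Gc was read along the summed share of Gcg, Sst, Ppy and Pyy. With the β-like cells of a library put in 4 groups by that share, from lowest to highest, Gc was at 23.6, 24.5, 22.4 and 25.9 CPM in WT. In HFD it was at 84.0, 87.4, 83.4 and 70.1 CPM. The WT intervals of the lowest and highest group, 21.2 to 26.3 and 23.3 to 28.8 CPM, overlapped, and in HFD the group with most of these hormones had the lowest level. Over the 1391 WT and 3805 HFD cells with no UMI of these hormones after thinning, the ratio of HFD to WT was 3.68.

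β-like cells with and without a Gc UMI were then compared for other genes, after thinning to 2000 UMIs. In HFD 27 of 8044 genes (0.336%) had a ratio of at least 2 and 193 (2.40%) were at least 2-fold lower in cells with Gc. The highest were Slc2a6, a glucose transporter family member (2.97, 1.54 to 5.51), and Smpd3, a sphingomyelinase (2.66, 1.45 to 4.70), on 16 and 18 UMIs in the 710 cells with Gc. The 10 highest held 13 to 18 UMIs there and the 10 lowest 1 to 3, so they rest on few counts. Insulin genes were level between these cells, with ratios of 1.01 for Ins1 and 0.997 for Ins2. Dapl1 had a ratio of 1.53 (1.41 to 1.67) and Ttr, the thyroxine carrier transthyretin, one of 1.28 (1.23 to 1.33). Ppy, the pancreatic polypeptide gene, had 0.615 (0.521 to 0.721). Gcg had 1.58 (1.39 to 1.78), but 81 of its 323 UMIs lay in 1 cell, and without that cell the ratio was 1.18 (1.03 to 1.36). Vdr, the receptor of calcitriol, had 1.08 with an interval of 0.835 to 1.37, which holds 1.

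In WT 75 cells had a Gc UMI after thinning, and of 4359 genes 152 (3.49%) had a ratio of at least 2 and 672 (15.4%) were at least 2-fold lower. Genes entered from 50 UMIs over all these β-like cells, so many held very few UMIs in the 75 cells with Gc. For such genes 0 or 1 UMI can already count as 2-fold lower, so these 2 shares say little about Gc. Gcg had 15.3 (13.4 to 17.4), with 165 of 399 UMIs in 1 cell, and 9.10 without it. Of the WT cells with Gc 93.3% held no Gcg UMI, against 94.1% of the cells without, so that ratio also rests on few cells. Rbp4, the retinol carrier and a δ cell gene, had 3.46 (1.82 to 6.10), while Sst had 2.49 (2.11 to 2.93) and Pyy, the peptide YY gene, 2.17 (1.82 to 2.58). These rest on the same 75 cells, with 14 UMIs of Rbp4, 168 of Sst and 148 of Pyy. Whether single cells carry these ratios, as for Gcg, was not tested. Dapl1 had 1.03 (0.558 to 1.76) in WT.

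The other genes of vitamin D handling were 21 genes for uptake, synthesis, breakdown, receptor and targets. In β-like cells 10 of them had at least 20 UMIs, and 0 of the 10 were at least 2-fold higher or lower in HFD, beside 1.99% higher and 2.59% lower over all genes. Their median log2 ratio was -0.22, against -0.01 over all genes tested. Vdr had 62.5 CPM (WT) and 50.4 CPM (HFD) in β-like cells, a ratio of 0.806. Its coactivator Ncoa1 was at 33.0 and 24.96 CPM, and its partners Rxra and Rxrb had ratios of 0.839 and 0.890. Of the uptake genes Lrp2 and Cubn held 0 UMIs in β-like cells of both libraries, and Amn, which anchors cubilin, held 18 in WT and 16 in HFD. Dhcr7, which turns the vitamin D precursor into cholesterol, was at 7.35 and 10.5 CPM. The activating enzyme Cyp27b1 held 10 WT and 4 HFD UMIs, and Cyp24a1 held 2 and 0. Among the targets, the plasma membrane calcium pump Atp2b1 had a ratio of 0.971 and the calcium buffer Calb1 one of 1.52.

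In α-like cells 8 of the 21 were tested, and 0 were at or past 2-fold, beside 2.42% of genes higher and 5.63% lower. Vdr there had 40.8 CPM (WT) and 39.2 CPM (HFD), and Calb1 had 104 and 142 CPM. In δ-like cells 3 were tested, again with 0 past 2-fold, beside 3.14% higher and 3.73% lower. Vdr held 5 WT and 6 HFD UMIs there.

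Gc belongs to the albumin family, whose other members Alb, Afp and Afm lie on the plus strand of chromosome 5 about 1003 to 1061 kb from it. In β-like cells Alb held 3 WT and 6 HFD UMIs, Afp 0 and 0, and Afm 33 and 27, which is 0.555 and 0.382 CPM. In α-like cells the 3 genes together held 2 WT UMIs, all of Afm, and in HFD 1 of Alb and 1 of Afm. Other secreted proteins that the liver is known for were mixed. In β-like cells 6 of 16 were tested, 0 were at least 2-fold higher and 1, Rbp4 (40.1 to 17.1 CPM, ratio 0.427), was at least 2-fold lower. Ttr had 840 CPM (WT) and 1647 CPM (HFD), a ratio of 1.96. Of 10 liver-enriched factors, 8 were tested in β-like cells and 0 were past 2-fold. Hnf4a had the highest ratio (8.40 and 14.2 CPM, 1.69) and Foxa2 the lowest (31.6 and 18.7 CPM, 0.590). Of the 7 actin and actin-binding genes all were tested, 0 were past 2-fold, and the gelsolin gene Gsn, whose product clears actin with Gc in plasma, had a ratio of 1.08.

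Among 10 other α cell genes, 8 were tested in β-like cells and 1 was at least 2-fold higher in HFD. This was the factor Etv1, at 8.55 and 21.7 CPM (ratio 2.54). The α cell factors Irx1 and Irx2 were at or below 0.606 CPM in β-like cells of both libraries. Gc was thus higher in HFD β-like cells beside Etv1 and Ttr, while Gcg was lower in its sum over cells. Of 14 genes of β cell identity and immaturity, 12 were tested and 3 were at least 2-fold higher. Those higher were Aldh1a3, an enzyme of retinoic acid synthesis known from dedifferentiated β cells (0.656 and 15.8 CPM), Dapl1 (90.6 and 368 CPM) and Cck (0.0168 and 1.51 CPM, on 1 WT UMI). Mafa, a factor of mature β cells, was at 314 and 166 CPM (0.529).

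In α-like cells Etv1 was at 207 and 211 CPM and Gcg had a ratio of 0.963, close to the 0.958 of Gc. Of the 10 α cell genes 1 was at least 2-fold higher in HFD, the amino acid transporter Slc38a5 (59.4 and 131.5 CPM), and 0 were at least 2-fold lower. The WT δ-like cells carried more α cell RNA than the HFD ones, with Gcg at 16737 CPM against 3785 CPM. At the α-like ratio of Gc to Gcg this Gcg would go with 3.36 of the 47 WT Gc UMIs of δ-like cells.

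Gc was last set beside all genes by its pattern over 7 cell classes in both libraries, which made 14 sums of at least 20 cells. The most alike by Pearson's r of log2(CPM + 1), among 3526 genes with at least 100 CPM in 1 sum, were Ptprn2 (r = 0.985), a protein of secretory granules, and Kcnk16 (0.983), a potassium channel of islet cells. Map3k15 (0.982), Rnf138rt1 (0.979), St18 (0.976), Stmn3 (0.976), Mrln (0.976), Rundc3a (0.972), Resp18 (0.969) and Bex3 (0.969) followed. These correlations are over sums that share libraries, and all 10 genes were lower in endothelial-like cells than in each of the 3 islet classes. In β-like cells the levels of each of them lay closer between the libraries than those of Gc. Ptprn2, for example, had 28.0 CPM (WT) and 24.6 CPM (HFD), and Kcnk16 had 69.7 and 87.8 CPM.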

How the data were processed

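Single-cell RNA was measured in 1 WT and 1 HFD islet library. The deposited values were raw counts (UMIs per gene and barcode), which the authors made by running Cell Ranger (v3.0.2) against mm10, per the labels and the study's methods. The study's maximum of 15000 UMIs per cell had not been applied to them. The libraries held 73843674 and 94375138 UMIs. Gc, the gene lists and the filters were chosen with earlier results of these data known.

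Scrublet (scanpy v1.11.5) called 1 and 0 doublets, which was taken as a failure, so the highest scores were left out, 0.8% for each 1000 barcodes (121 WT and 641 HFD barcodes). Genes in at least 15 cells were scaled to 10000 UMIs per cell and square-root transformed. The 2000 most variable genes, without hormone genes, Gc and all listed genes, gave 50 components and 15 neighbours for Leiden clustering (igraph v0.11.9, resolution 1). Clusters were named "X-like" from 16 marker lists. A marker counted from 0.5 UMIs per 10000 and 2 times the other candidates, and clusters with under 3 of these, or with the top 10 genes holding more markers of a different class, were left unnamed. Unnamed clusters of at least 100 cells were split again at resolution 0.5 with hormone genes put back, and a name outside the islet was refused above 30% insulin UMIs. The second split and these refusals were added after clusters had been seen.

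UMIs were summed by class and library. Sums have exact Poisson, shares Clopper-Pearson and ratios exact conditional 95% intervals (scipy v1.17.1), for counting error only. Tested genes had at least 20 UMIs over both libraries, and the limit of a count of 0 was set by 3 counts. Genes named were Gc, the 10 most like it, the 10 highest and 10 lowest between β-like cells with and without Gc (at least 50 UMIs), and list members, of which the text gives some. TMM factors (edgeR v4.0.16) and DESeq2 (v1.42.0) size factors were alternatives in scale alone, with no test run. The code was tested on simulated data. Gene models were GENCODE for GRCm38, which may differ from the release in the authors' index. Some of the listed genes are not reported here.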

Additional observations from a re-analysis of the deposited data

Results flagged for a closer look

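Gc in α-like cells had a ratio of HFD to WT of 0.958 and in β-like cells of 3.39, on opposite sides of 1, though the α-like ratio was 1.02 without hormone and mt- UMIs and 1.09 by TMM factors. This difference between classes was not tested, and the α-like interval (0.759 to 1.21) holds 1.

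Barcodes that the filters left out also held Gc. The 1398 left-out WT barcodes had 17.6 CPM (14.4 to 21.4), below the 70.5 CPM (65.9 to 75.3) of the 2278 left-out HFD barcodes.

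Unnamed clusters held more Gc in HFD than in WT in part. In cluster 7a, led by Sst, Rbp4 and Ly6h beside an insulin share of 33.9%, Gc was at 62.0 CPM (48.5 to 78.0) in 39 WT cells and 95.2 CPM (71.3 to 125) in 50 HFD cells, with intervals that overlap. In cluster 7c, with collagen genes among its leading genes, it was at 46.2 CPM (32.4 to 64.0) in 32 WT cells and 103 CPM (74.6 to 140) in 47 HFD cells. In both the HFD interval lay above the WT value. Cluster 7b, led by Rbp4, had a wider gap, with 26.0 CPM (15.7 to 40.6) in 13 WT cells and 96.8 CPM (80.9 to 115) in 75 HFD cells.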

How the results depend on the processing

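Of 153 alternative values, 107 stayed within the counting interval of the value reported (counts of genes, within 1.5 times) and 46 moved. The HFD to WT ratio of β-like cells, 3.39, ran from 3.10 to 4.08. It was 3.60 with at most 15000 UMIs per cell, 3.64 at clustering resolution 0.5, 3.14 with classes set by the leading hormone, 4.08 among cells of 10000 to 30000 UMIs, 3.16 without hormone and mt- UMIs, 3.10 with unnamed β candidates added and 3.68 in cells with no second hormone (the last 2, and a thinned depth of 10000 UMIs, were chosen after seeing the data). The α-like ratio was 0.633 among cells of 10000 to 30000 UMIs, where no δ-like value could be had, and it was above 1 by TMM, by DESeq2 size factors, without hormone and mt- UMIs and with classes set by the leading hormone. The δ-like ratio was 3.14 with at most 10% mt- UMIs and 2.38 at resolution 2. Its interval, which holds 1 in the value reported, lay above 1 under 6 of the 10 alternatives that gave one, these 2 and no doublets left out (1.01 to 1.76), at least 1000 genes (1.03 to 1.80), resolution 0.5 (1.11 to 2.41) and the leading hormone (1.04 to 2.36).

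The ratio of α-like to β-like cells was 11.4 in WT and 2.79 in HFD with at most 15000 UMIs, 4.10 and 1.32 without hormone and mt- UMIs, and 1.93 in HFD at resolution 0.5. The share of β-like cells with Gc was 14.6% in HFD at resolution 0.5, and in WT and HFD it was 2.46% and 7.46% at 1000 UMIs, 10.1% and 29.3% at 5000, 18.6% and 50.2% at 10000, and 43.7% and 51.8% with no thinning. Gc UMIs for each 1000 Gcg UMIs in WT β-like cells came to 41.5 with no doublets left out, 52.3 with at most 10% mt- UMIs and 19.3 by the leading hormone. In HFD β-like cells they came to 478 with at most 15000 UMIs, 293 with no doublets left out, 469.8 with at least 1000 genes, 359 with at most 10% mt- UMIs, 311 and 374 at resolutions 0.5 and 2, and 128 by the leading hormone. In non-endocrine cells they came to 4.39 in WT with at most 15000 UMIs and 61.0 in HFD with at least 1000 genes.

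With genes of at least 1 UMI, 2128 genes were higher and 2142 lower past 2-fold in α-like cells, 1856 and 1979 in β-like cells, and 2376 and 2328 in δ-like cells, and 5 vitamin D genes in β-like and 1 in δ-like cells were past it, all with few UMIs. TMM factors turned the α-like split of 154 higher and 359 lower genes to 242 and 192. Of the 10 genes most like Gc, 5 were shared when at least 20 CPM was required. No paired analysis was possible because each group had 1 library, and for the same reason no library could be left out. Depth limits the α-like and δ-like classes, and the non-endocrine level rests on 5 and 4 UMIs.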

Other observations

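The unnamed clusters that lead with Ppy and Pyy also held Gc. In cluster 13c, 12 WT cells had 217 CPM (157 to 293) and 20 HFD cells had 233 CPM (158 to 330), and each interval overlapped that of the α-like cells of its library. In cluster 7e, where the same genes lead beside an insulin share of 31.8%, Gc stood at 124 CPM in 25 WT cells and 71.6 CPM in 26 HFD cells. Of the 105 WT Gc UMIs in cluster 7e, 38 lay in 1 cell, and without it, a choice made after seeing the data, the level was 85.3 CPM (66.1 to 108), inside the HFD interval of 43.1 to 112 CPM. In cluster 5a, made of 220 HFD cells and 1 WT cell with hemoglobin genes beside insulin, it was at 45.4 CPM (39.1 to 52.3). In cluster 20, with 47 HFD cells of a median of 3481 UMIs, it was at 165 CPM (113 to 231).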
